A study of Homo sapiens with 18 samples.

Results

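The endoplasmic reticulum (ER) folding and unfolded protein response set described here holds 32 genes, listed by symbol, of 36601 gene IDs in the files. It comprises 9 chaperones and cochaperones, 2 lectin chaperones, 5 disulfide isomerases with the oxidase ERO1A, 6 genes of ER-associated degradation, 4 of the translocon, 2 KDEL receptors and 3 sensors or transcription factors. All 32 had counts in all 18 libraries (344 to 88383 counts), and all passed the filter on low counts in each fit. The libraries come from 3 human cholangiocarcinoma cell lines, which are cancer cells of the bile duct system: HuCCT1 (labelled bile duct), YSCCC (labelled liver) and KKU-100 (labelled biliary tract). Each line carried, from stable lentiviral delivery, either a control hairpin (shControl) or hairpin number 2 against RNF213 (shRNF213), a large ubiquitin ligase, with 3 replicates per group. HuCCT1 and YSCCC grew in RPMI-1640 and KKU-100 in Ham's F12, all with 10% serum, so KKU-100 and its medium cannot be told apart. A single hairpin stands for the knockdown in every line, and whether a replicate number means a separate culture or a separate RNA extraction is not stated, so the p-values measure the spread between these libraries, which may be technical.

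Proteins that enter the secretory pathway pass through the SEC61 translocon into the ER, where Hsp70 and Hsp90 type chaperones, lectin chaperones and disulfide isomerases fold them. Proteins that fail to fold are exported and degraded, and chaperones that escape carry a KDEL-type tail that KDEL receptors of the Golgi bind to return them. The sensors IRE1 (the product of ERN1), ATF6 and PERK respond to unfolded protein; IRE1 splices XBP1 mRNA, and spliced XBP1 and cleaved ATF6 are the transcription factors that raise many of these genes. Splicing of XBP1 and cleavage of ATF6 cannot be read from gene counts, and a lower level in bulk RNA can come from fewer cells of a type or from less RNA per cell, which cannot be told apart.

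Binding elements of these factors were searched for in RefSeq promoter windows (GRCh38.p14, 250 bases before to 50 after a start), which were found for 29 of the 32 genes; DERL1, KDELR2 and PDIA3 were not matched. Several windows were found for 5 genes, and a gene counted if any of its windows held the element. The ER stress element ERSE (CCAAT and CCACG with 9 bases between them, on either strand) lay in 7 of the 29 genes, against 0.0916% of the 27305 genes with a window. ERSE-II (ATTGG and CCACG with 1 base between them) lay in 3, against 0.0696%, and the unfolded protein response element UPRE (TGACGTGG, whose reverse complement shares CCACG with the other elements) lay in 3, against 0.927%. In all, 12 of the 29 held at least 1 of them: CALR, CANX, CRELD2, HSP90B1, HSPA5, PDIA6 and XBP1 held ERSE, HERPUD1, HYOU1 and SDF2L1 held ERSE-II, and DNAJC10, HYOU1 and KDELR3 held UPRE. In HYOU1 the UPRE (-188 to -181 from the start) overlaps an ERSE-II site (-185 to -175), so these matches share bases. The elements below belong to genes that the replicate or hairpin comparisons turn on, with PDIA6 as a gene that holds ERSE and was not called between YSCCC replicates; capitals mark the fixed letters of the element, 5 bases flank it on each side within the given coordinates, and each run reads 5′ to 3′ on the strand of the gene.
HSPA5, ERSE, chr9:125241386-125241414, minus strand: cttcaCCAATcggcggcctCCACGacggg
XBP1, ERSE, chr22:28800598-28800626, minus strand: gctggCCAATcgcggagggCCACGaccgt
PDIA6, ERSE, chr2:10812848-10812876, minus strand: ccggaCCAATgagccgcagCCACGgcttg
HERPUD1, ERSE-II, chr16:56932020-56932040, plus strand: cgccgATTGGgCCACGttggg
HYOU1, ERSE-II, chr11:119057375-119057395, minus strand: cgtgaCGTGGtCCAATcccag
DNAJC10, UPRE, chr2:182716127-182716144, plus strand: caccgCCACGTCAaccta
KDELR3, UPRE, chr22:38468045-38468062, plus strand: cctggCCACGTCAccgcc
The KDELR3 and DNAJC10 elements are printed as the reverse complement, since UPRE lies on the strand opposite to the gene, as does ERSE-II in HYOU1, which holds it at 2 sites. The HSPA5 element ended 48 bases before the start, that of XBP1 34 and that of KDELR3 39. The PDIA6 element lies in a window whose start is at -25192 bases, in genome coordinates, from the deposited start of the gene. PDIA6 is on the minus strand, so this window start is downstream of the deposited start, within the gene. The CANX windows start 19799 to 20339 bases from the deposited start of CANX, also downstream of it. The other PDIA6 window held none of the elements. A match describes these letters only and shows no binding.

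Each library held 21056732 to 25502097 counts, of which 1.61% to 2.76% were mitochondrial. RNF213, the targeted gene, had 394, 1277 and 433 CPM in shControl replicates 1, 2 and 3 and 277, 431 and 286 CPM in shRNF213 replicates 1, 2 and 3 in HuCCT1. In YSCCC it had 427, 378 and 523 CPM in shControl replicates 1, 2 and 3 and 151, 233 and 214 CPM in shRNF213 replicates 1, 2 and 3, and in KKU-100 1248, 1012 and 1209 CPM in shControl replicates 1, 2 and 3 and 575, 649 and 559 CPM in shRNF213 replicates 1, 2 and 3. The arms did not overlap in YSCCC and KKU-100 and overlapped in HuCCT1, where shControl replicate 2 was the highest library. RNF213 was lower with the hairpin in 9 of 9 same-numbered pairs, with paired log2 fold changes of -0.89 in HuCCT1, -1.16 in YSCCC and -0.97 in KKU-100 (edgeR adjusted p = 0.136, 0.000307 and 0.0462). Of 6 biliary epithelial markers, all reached a mean of 1 CPM in HuCCT1 and YSCCC and 4 did in KKU-100, where KRT19 and EPCAM were at most 0.181 and 0.134 CPM. Hepatocyte markers summed to at most 0.402 CPM in any library. Both YSCCC libraries of replicate 3 stood apart from the other 4: 25.8% of 16932 genes were above and 29.1% below all others there. The results below are therefore also given without that replicate where it matters.

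In YSCCC 8 of 9 chaperones and cochaperones, 6 of 6 degradation genes and 3 of 3 sensors or factors were higher in both libraries of replicate 3 than in the other 4, with HSPA5, HERPUD1 and ERN1 among the widest differences; the cochaperone DNAJC3 overlapped. Both replicate 3 libraries lay above the other 4 YSCCC libraries in 23 of 32 genes (25.8% of all genes) and below them in 0 of 32 (29.1%). The 32 genes summed to 8885 to 10392 CPM (counts scaled to the TMM-normalised library total) in replicates 1 and 2, to 15303 CPM in shControl replicate 3 and to 12805 CPM in shRNF213 replicate 3. A test for any difference between replicate numbers, with the hairpin as a covariate (edgeR, Benjamini-Hochberg adjusted over all genes, threshold 0.05), called 23 of 32 genes (71.9%) against 45.4% of all genes. All 23 were higher in replicate 3 than in the mean of the others, and the median of this log2 difference was 0.53 over the 32 genes and 0.02 over all genes.

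HSPA5, the Hsp70 chaperone BiP that holds the sensors inactive, had 857, 857 and 3178 CPM in shControl replicates 1, 2 and 3 and 790.5, 782 and 2178 CPM in shRNF213 replicates 1, 2 and 3. Both replicate 3 libraries lay above all others, at a difference of 1.72 (SE 0.10, adjusted p = 1.83e-07) on the log2 scale. Its exchange factor HYOU1 had 363, 325 and 723 CPM in shControl replicates 1, 2 and 3 and 291, 295 and 833 CPM in shRNF213 replicates 1, 2 and 3, a difference of 1.33. The J-domain cochaperone DNAJB9 was higher by 1.65 and the secreted stress protein MANF by 1.11, and the Hsp90 of the ER, HSP90B1, by 0.44 (adjusted p = 0.00461). All 9 chaperones and cochaperones were called.

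The degradation genes were higher in replicate 3 as well, led by HERPUD1, a scaffold of the SYVN1 ubiquitin ligase complex. HERPUD1 had 119, 102 and 497 CPM in shControl replicates 1, 2 and 3 and 92.9, 70.2 and 303 CPM in shRNF213 replicates 1, 2 and 3. Its replicate 3 libraries were above the other 4, with a difference of 2.08 (SE 0.10, adjusted p = 4.9e-08). The adaptor SEL1L (1.08), DERL1 (0.99), the mannosidase-like EDEM1 (0.82), the ligase SYVN1 (0.62) and DERL2 (0.39) were called too, so 6 of 6 were. All 3 sensors or factors were called: ERN1 had 18.8, 15.1 and 101 CPM in shControl replicates 1, 2 and 3 and 14.6, 17.1 and 96.3 CPM in shRNF213 replicates 1, 2 and 3, the widest difference of the set (2.62, SE 0.12, adjusted p = 4.31e-08). XBP1 was higher by 1.19 and ATF6 by 1.08. KDELR3, the stress-responsive KDEL receptor, was higher by 1.65, while KDELR2 was at 0.30 and not called (adjusted p = 0.0562).

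Both lectin chaperones, 4 of the 6 isomerase and oxidase genes and 2 of the 4 translocon genes were not called between YSCCC replicates. CALR and CANX, which hold glycoproteins during folding, had replicate 3 differences of -0.01 and -0.04, and CANX ran from 1797 to 2058 CPM over the 6 libraries. Of the 6 isomerase and oxidase genes, the reductase DNAJC10 (1.27) and PDIA4 (0.44) were called; PDIA6, PDIA3, P4HB and ERO1A, at 0.20, 0.15, 0.01 and -0.02, were not. The channel subunit SEC61A1 and SSR1 of the translocon-associated complex were not called (0.12 and 0.11), and the small subunits SEC61B and SEC61G were (0.40 and 0.33). Without replicate 3, replicates 1 and 2 differed in 1 of 32 genes, KDELR3. Over all genes, 630 to 8225 were called with 1 replicate number left out, against 7687 with all. Of the 12 genes with a promoter element 9 were called, with a median of 0.99, and of the 17 without one 13 were called, with a median of 0.52; ERN1 and DNAJB9 are among the 17.

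**Figure D1:**
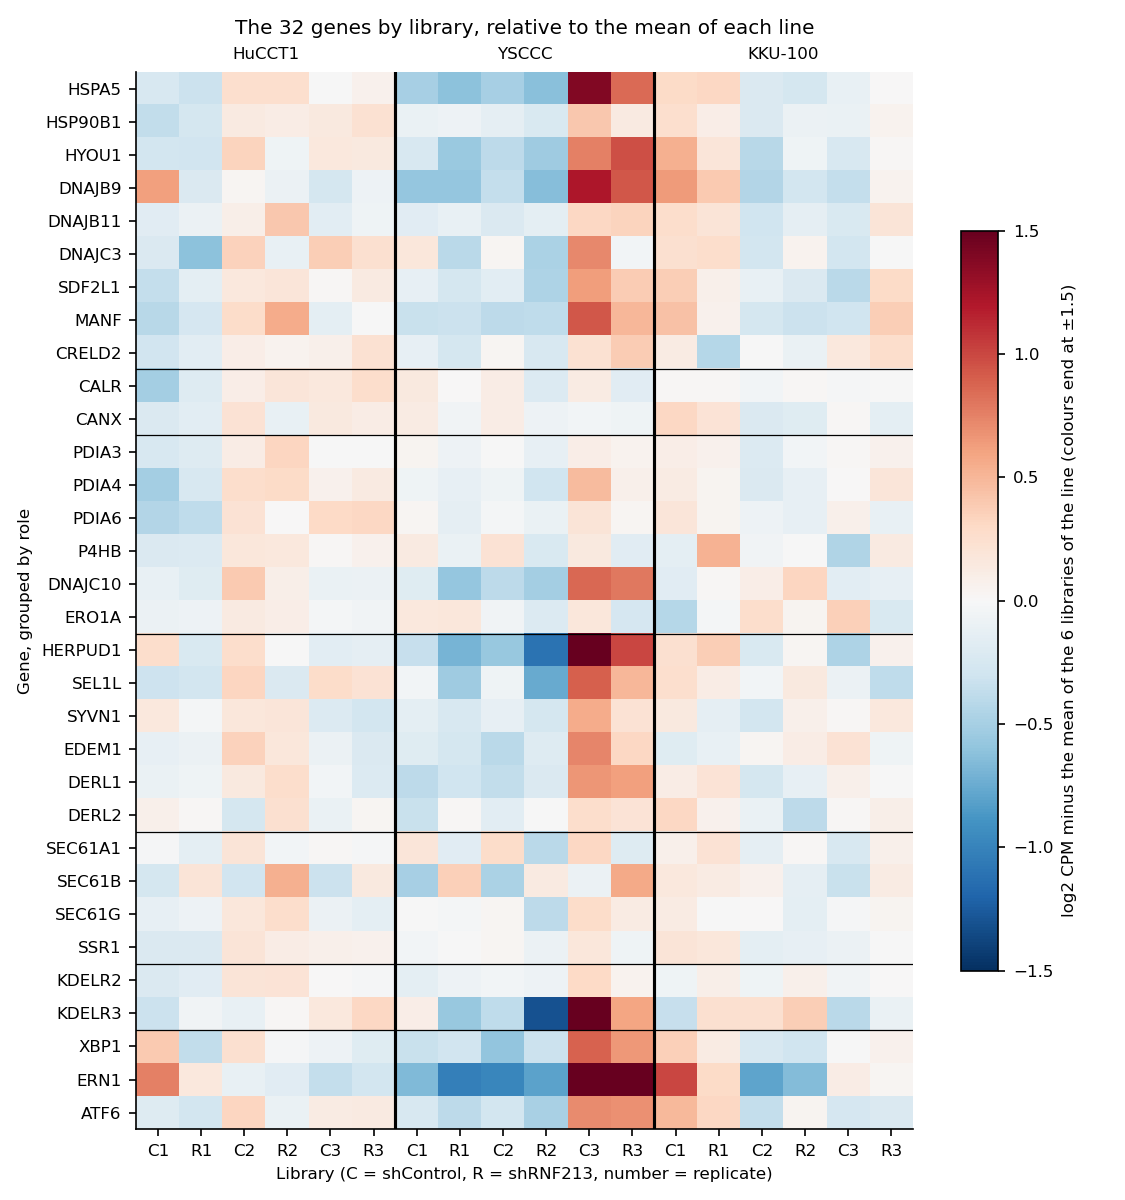
Heat map of the 32 genes (vertical, grouped by role) in 18 libraries (horizontal); colour is the log2 CPM minus the mean of the 6 libraries of the line. The 2 YSCCC columns of replicate 3 are red for most chaperones, degradation genes and sensors, and pale for CALR, CANX, PDIA3, PDIA6 and SSR1.

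Genes downstream of PERK and ATF4, which lower translation and supply amino acids under stress, were higher in YSCCC replicate 3 as well, and cytosolic heat shock genes were lower. Of 14 genes of the PERK and ATF4 arm, 11 were called and 11 of these were higher in replicate 3 (median over the 14 of 1.58). CHAC1, a glutathione-degrading enzyme, had 11.7, 7.88 and 115 CPM in shControl replicates 1, 2 and 3 and 9.13, 9.42 and 123 CPM in shRNF213 replicates 1, 2 and 3. ASNS, asparagine synthetase, was higher by 3.55 and the secreted glycoprotein STC2 by 2.83. Of 13 cytosolic heat shock genes, 12 were called and 11 of these were lower in replicate 3 (median -0.75). HSPA1A and HSPA1B in this list are near-identical copies whose reads the counting could split. HSP90AA1, the cytosolic Hsp90, had 1587, 1811 and 667 CPM in shControl replicates 1, 2 and 3 and 1572, 1539 and 633 CPM in shRNF213 replicates 1, 2 and 3. In the same libraries all 6 biliary markers were called, with KRT19 at -1.32 in replicate 3, the 6 fibroblast markers summed to 64.1 CPM in shControl and 40.3 CPM in shRNF213 against 144 to 251 CPM in the other 4 libraries, and the 3 endothelial markers to 14.9 and 28.6 CPM against 59.7 to 96.8 CPM. The 4 immune markers were not lower there, at 69.8 CPM in shControl and 74.1 CPM in shRNF213 against 55.2 to 76.8 CPM in the other 4 libraries. By edgeR 1 of 3 immune markers tested was called. The part of these markers in the ER difference was not tested.

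**Figure D2:**
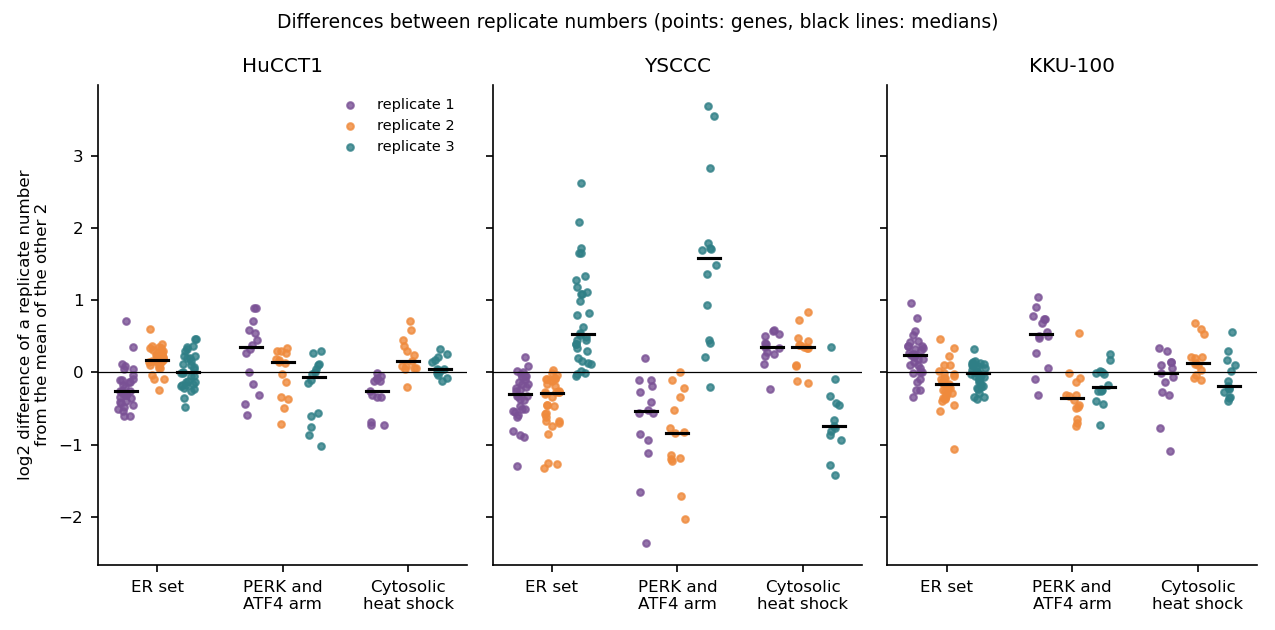
Log2 difference of each replicate number from the mean of the other 2 (vertical), by line, for the 32 ER genes, 14 genes of the PERK and ATF4 arm and 13 cytosolic heat shock genes; points are genes and black lines medians. In YSCCC the replicate 3 medians are 0.53, 1.58 and -0.75, and in HuCCT1 and KKU-100 the ER medians stay within -0.26 to 0.24.

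In HuCCT1 most of the ER genes were lower in replicate 1 and higher in replicate 2 than in the mean of the other replicates. The test called 11 of 32 genes (34.4%) against 19.2% of all genes, and both replicate 1 libraries lay below the other 4 in 19 of 32 genes (15% of all genes). Both replicate 2 libraries lay above the other 4 in 15 of 32 genes (16.5% of all genes). Over the 32 the median difference of a replicate from the mean of the others was -0.26 for replicate 1 (26 negative) and 0.17 for replicate 2 (28 positive), beside 0.00 and -0.01 over all genes. Of the 11, 9 were lower in replicate 1 and 9 higher in replicate 2; PDIA6 had 142, 223 and 236 CPM in shControl replicates 1, 2 and 3 and 147, 194 and 239 CPM in shRNF213 replicates 1, 2 and 3, with replicate 1 at -0.60 (SE 0.09, adjusted p = 0.00612). MANF, DNAJC3, PDIA4, CALR, HSP90B1, HSPA5, EDEM1 and KDELR3 were the others at -0.48, -0.61, -0.54, -0.51, -0.45, -0.40, -0.14 and -0.25. ERN1 went the other way, with 122, 66.8 and 56.4 CPM in shControl replicates 1, 2 and 3 and 80.2, 64.3 and 59.4 CPM in shRNF213 replicates 1, 2 and 3 (0.72, SE 0.13, adjusted p = 0.0141), and SYVN1 was at 0.12. The count was 3 without replicate 1, 18 without replicate 2 and 7 without replicate 3. Over all genes it ranged from 1896 to 4797 in these settings, against 3029 with all replicates. In HuCCT1, 8 of 14 genes of the PERK and ATF4 arm were called, 7 of them higher in replicate 1. Marker genes differed between the same replicates: 3 of 6 biliary markers (KRT19, KRT7 and SOX9), 1 of 3 fibroblast, 1 of 2 immune and by edgeR 0 of 1 endothelial markers tested were called. The immune CD68 was at -0.87 in replicate 1 and 0.97 in replicate 2 (adjusted p = 0.000225), and the fibroblast LUM was at 2.05 in replicate 3. The 6 biliary markers summed to 7145 to 7439 CPM in replicate 1, 9428 to 9872 in replicate 2 and 7569 to 8064 in replicate 3. Immune markers summed to 42.2 to 46.1, 99.1 to 104 and 61.7 to 64.4 CPM, fibroblast markers to 21.9 to 28.5, 18.2 to 24.9 and 33.7 to 41.6, and endothelial markers to 2.77 to 2.81, 3.33 to 4.41 and 2.83 to 2.97. Their part in the ER differences was not tested.

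In KKU-100 the test called 1 of 32 genes (3.12%) against 4.9% of all genes. That gene was ERN1, at 396, 115 and 215 CPM in shControl replicates 1, 2 and 3 and 243, 127 and 203 CPM in shRNF213 replicates 1, 2 and 3, with replicate 1 at 0.96, replicate 2 at -1.07 and adjusted p = 0.0369. DESeq2 called 4 genes here (ATF6, DNAJB9, ERN1 and HSPA5), and the edgeR call of ERN1 was lost without replicate 2 (adjusted p = 0.0812). Both replicate 1 libraries lay above the other 4 in 13 of 32 genes, beside 18.1% of all genes, and both replicate 2 libraries lay below the other 4 in 9 of 32, beside 10.6%. The immune marker CD68 was called as well, at 0.64 in replicate 1 and -0.66 in replicate 2 (1 of 1 immune marker tested; the 4 immune markers summed to 83.5 to 116 CPM in replicate 1, 50.5 to 56.0 in replicate 2 and 67.5 to 78.7 in replicate 3), and its part was not tested. ERN1 had the widest range of the set in 5 of the 6 groups, with the highest library 6.69 times the lowest in YSCCC shControl; CALR, CANX, KDELR2, SEC61A1 and SEC61B had the narrowest in 1 or more groups. The median of highest over lowest within a group was 1.26 to 1.57 for the ER genes and 1.31 to 1.5 for all genes.

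With the RNF213 hairpin, 7 ER genes changed in YSCCC, 6 lower and 1 higher, and the translocon subunits SEC61A1 and SEC61B went in opposite directions. The 7 of 32 (21.9%) stand beside 8.25% of all genes, in an edgeR fit with the replicate number as a block; the block compares libraries of the same number. The 6 lower genes (18.8%) stand beside 4.56% and the 1 higher gene beside 3.69%. Of the 32, 27 had negative values, and the median was -0.14 against 0.01 for all genes. Without the block 0 of 32 were called (4 at an unadjusted p under 0.05; no other tool was run without it). All 7 were called also by DESeq2 and limma-voom with the block, and also without replicate 3.

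SEC61A1, the pore of the translocon, had 509, 541 and 555 CPM in shControl replicates 1, 2 and 3 and 398, 338 and 393 CPM in shRNF213 replicates 1, 2 and 3. The arms did not overlap, and it fell by 0.51 on the log2 scale (SE 0.09, adjusted p = 0.00429). SEC61B, a small subunit of the same channel, had 42.9, 43.6 and 57.3 CPM in shControl replicates 1, 2 and 3 and 78.1, 66.7 and 90.3 CPM in shRNF213 replicates 1, 2 and 3. Here every shRNF213 library was above every shControl library, with a log2 fold change of 0.71 (SE 0.10, adjusted p = 0.00116). The other small subunit SEC61G and SSR1 were at -0.20 and -0.11, not called.

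KDELR3 fell most of the 32. It had 34.3, 24.7 and 95.1 CPM in shControl replicates 1, 2 and 3 and 21.6, 13 and 48.2 CPM in shRNF213 replicates 1, 2 and 3. Each shRNF213 library was below its pair while the arms overlapped, replicate 3 being high in both (-0.86, SE 0.11, adjusted p = 0.000714). KDELR2 was at -0.07, not called. DNAJC3, a cochaperone of HSPA5 known as p58IPK, had 64.2, 58.2 and 94.3 CPM in shControl replicates 1, 2 and 3 and 43.1, 41.3 and 55.8 CPM in shRNF213 replicates 1, 2 and 3. All 3 shRNF213 libraries were below all shControl libraries (-0.61, SE 0.10, adjusted p = 0.00302). HSPA5 itself was at -0.27 (SE 0.10, adjusted p = 0.117). The other chaperones and cochaperones HSP90B1, HYOU1, DNAJB9, DNAJB11, SDF2L1, MANF and CRELD2 were at -0.11, -0.09, -0.20, 0.06, -0.24, -0.14 and -0.08, not called.

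Of the degradation genes, SEL1L and HERPUD1, 2 partners of the ligase SYVN1, fell. SEL1L had 252, 248 and 484 CPM in shControl replicates 1, 2 and 3 and 179, 154 and 365 CPM in shRNF213 replicates 1, 2 and 3, lower in 3 of 3 pairs (-0.53, SE 0.09, adjusted p = 0.00345). HERPUD1, whose libraries are given above, was lower in 3 of 3 pairs (-0.54, SE 0.10, adjusted p = 0.0049). SYVN1 was at -0.19, EDEM1 at -0.10, DERL1 at 0.06 and DERL2 at 0.14, none of them called. P4HB, the archetypal protein disulfide isomerase, had 1030, 1084 and 1038 CPM in shControl replicates 1, 2 and 3 and 874, 799 and 829 CPM in shRNF213 replicates 1, 2 and 3. The arms did not overlap (-0.34, SE 0.08, adjusted p = 0.0251), but P4HB no longer passed when replicate 1 was left out (adjusted p = 0.105), nor when replicate 2 was (adjusted p = 0.145). PDIA3, PDIA4, PDIA6, DNAJC10 and ERO1A were at -0.09, -0.23, -0.14, -0.19 and -0.19, not called. The lectin chaperones CALR (-0.25, SE 0.08, adjusted p = 0.0833) and CANX (-0.13) also had arms that did not overlap and were not called. In all, shRNF213 lay below shControl without overlap in 5 of 32 genes (5.06% of all genes) and above in 1 (5.57%). XBP1 (0.02), ERN1 (-0.09) and ATF6 (-0.13) were not called. Of the marker lists in the same fit, 2 of 4 fibroblast markers tested fell, COL3A1 (-1.17) and COL1A1 (-0.61), and 2 of 3 endothelial markers rose, among them CDH5 (0.58). By edgeR 0 of 6 biliary and 0 of 3 immune markers were called. The sum of the 6 fibroblast markers was higher with shRNF213 in replicates 1 and 2, from 144 to 223 and from 191 to 251 CPM (shControl to shRNF213), and lower in replicate 3, from 64.1 to 40.3 CPM. LUM makes up most of that sum in replicates 1 and 2 and rose over the mean of the lines (1.24, SE 0.25, adjusted p = 0.0177). The 3 endothelial markers summed to 76.6 to 85.7, 59.7 to 96.8 and 14.9 to 28.6 CPM from shControl to shRNF213 in replicates 1, 2 and 3. Their part in the ER changes was not tested.

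**Figure D3:**
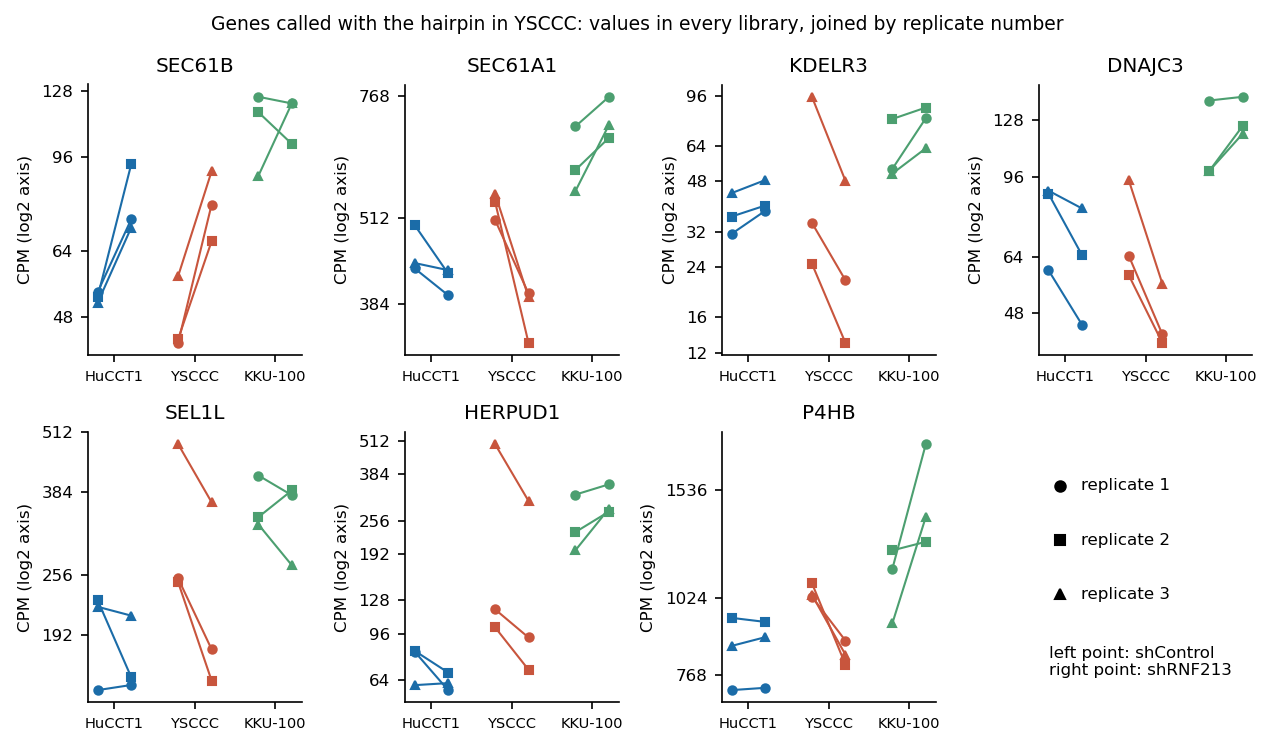
CPM (log2 axis) of the 7 genes called in YSCCC in every library; lines join shControl and shRNF213 of 1 replicate number. In YSCCC 6 genes slope downward and SEC61B upward in 3 of 3 pairs, and in KKU-100 KDELR3, DNAJC3, SEC61A1, HERPUD1 and P4HB slope upward in 3 of 3 pairs.

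In HuCCT1 edgeR called 0 of 32 genes, against 0.14% of all genes; 5 had an unadjusted p under 0.05, DESeq2 called 1 (SEC61B) and limma-voom 0. SEC61B had 53.5, 52.4 and 51.1 CPM in shControl replicates 1, 2 and 3 and 73.3, 93.1 and 70.7 CPM in shRNF213 replicates 1, 2 and 3, without overlap and higher in 3 of 3 pairs (0.58, SE 0.10, adjusted p = 0.0748). Without replicate 2 or 3 SEC61B passed, and without replicate 3 XBP1 did too (-0.38 over 3 pairs, adjusted p = 0.344). DNAJC3 had 59.7, 88.2 and 89.5 CPM in shControl replicates 1, 2 and 3 and 45.3, 64.5 and 81.8 CPM in shRNF213 replicates 1, 2 and 3, lower in 3 of 3 pairs (-0.33, SE 0.09, adjusted p = 0.271). Arms did not overlap in SEC61B, higher (4.91% of all genes), and SEC61A1, lower (3.56%). The median over the 32 genes was -0.01, against 0.00 for all genes.

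In KKU-100 all 3 tools called 0 of 32 genes, against 0.443% of all genes by edgeR; 3 had an unadjusted p under 0.05 in each. P4HB had 1143, 1225 and 932 CPM in shControl replicates 1, 2 and 3 and 1825, 1266 and 1389 CPM in shRNF213 replicates 1, 2 and 3. All shRNF213 libraries were above all shControl libraries (0.42, SE 0.15, adjusted p = 0.241). KDELR3 had 53.1, 79.5 and 51.1 CPM in shControl replicates 1, 2 and 3 and 80.0, 87.2 and 62.8 CPM in shRNF213 replicates 1, 2 and 3, higher in 3 of 3 pairs with overlapping arms (0.32, SE 0.12, adjusted p = 0.252). Arms did not overlap in 2 genes, P4HB and KDELR2, both higher (6.07% of all genes), and in 0 lower (6.15%). SEC61B had 125, 117 and 88.6 CPM in shControl replicates 1, 2 and 3 and 121, 102 and 121 CPM in shRNF213 replicates 1, 2 and 3, lower in 2 pairs and higher in 1 (0.05, SE 0.14, adjusted p = 0.884). Over the mean of the 3 lines 2 of 32 genes were called, against 2.9% of all genes: SEC61B rose by 0.45 (SE 0.07, adjusted p = 0.00414), as 1 gene higher beside 1.43% of all genes, and DNAJC3 fell (-0.25, SE 0.06, adjusted p = 0.0397), beside 1.47%. SEC61B kept its call without any 1 pair, whereas DNAJC3 lost it without 7 of the 9 pairs (adjusted p = 0.0566 to 0.126).

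The effect of the hairpin on 5 genes differed between KKU-100 and YSCCC, against 2.63% of all genes, and on 1 between YSCCC and HuCCT1, against 0.047%. All 5 were higher in KKU-100 (1.64% of all genes) and the 1 was lower in YSCCC (0.0104%). KDELR3 was called in both. Its effect in YSCCC was -1.04 relative to HuCCT1 (SE 0.15, adjusted p = 0.0263), where it had 31.4, 36.1 and 43.7 CPM in shControl replicates 1, 2 and 3 and 37.8, 39.5 and 48.5 CPM in shRNF213 replicates 1, 2 and 3, higher in 3 of 3 pairs. Relative to YSCCC, its effect in KKU-100 was higher by 1.19 (SE 0.15, adjusted p = 0.00296). The other differences of KKU-100 from YSCCC were 0.81 (SE 0.15, adjusted p = 0.0121) for DNAJC3, 0.82 (SE 0.16, adjusted p = 0.0186) for HERPUD1, 0.75 (SE 0.15, adjusted p = 0.0207) for P4HB and 0.70 (SE 0.13, adjusted p = 0.0136) for SEC61A1. These 5 are 5 of the 7 genes called in YSCCC, and all had negative values in YSCCC and positive ones in KKU-100; the 2 comparisons share the YSCCC libraries. SEC61B, at -0.65 (SE 0.17, adjusted p = 0.0583), was not called. Between KKU-100 and HuCCT1 edgeR, DESeq2 and limma-voom called 0 of 32 (5 at an unadjusted p under 0.05 in edgeR), against 0.235% of all genes. The YSCCC to HuCCT1 call of KDELR3 was lost without any 1 pair of these lines (adjusted p = 0.0647 to 0.179). P4HB lost its call against KKU-100 without YSCCC replicate 1, 2 or 3 or KKU-100 replicate 1 or 3 (adjusted p = 0.0525 to 0.0829), HERPUD1 without YSCCC replicate 2 or 3 (adjusted p = 0.0578 and 0.0660) and SEC61A1 without YSCCC replicate 2 (adjusted p = 0.0637). KDELR3 and DNAJC3 kept theirs without any 1 pair.

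**Figure D4:**
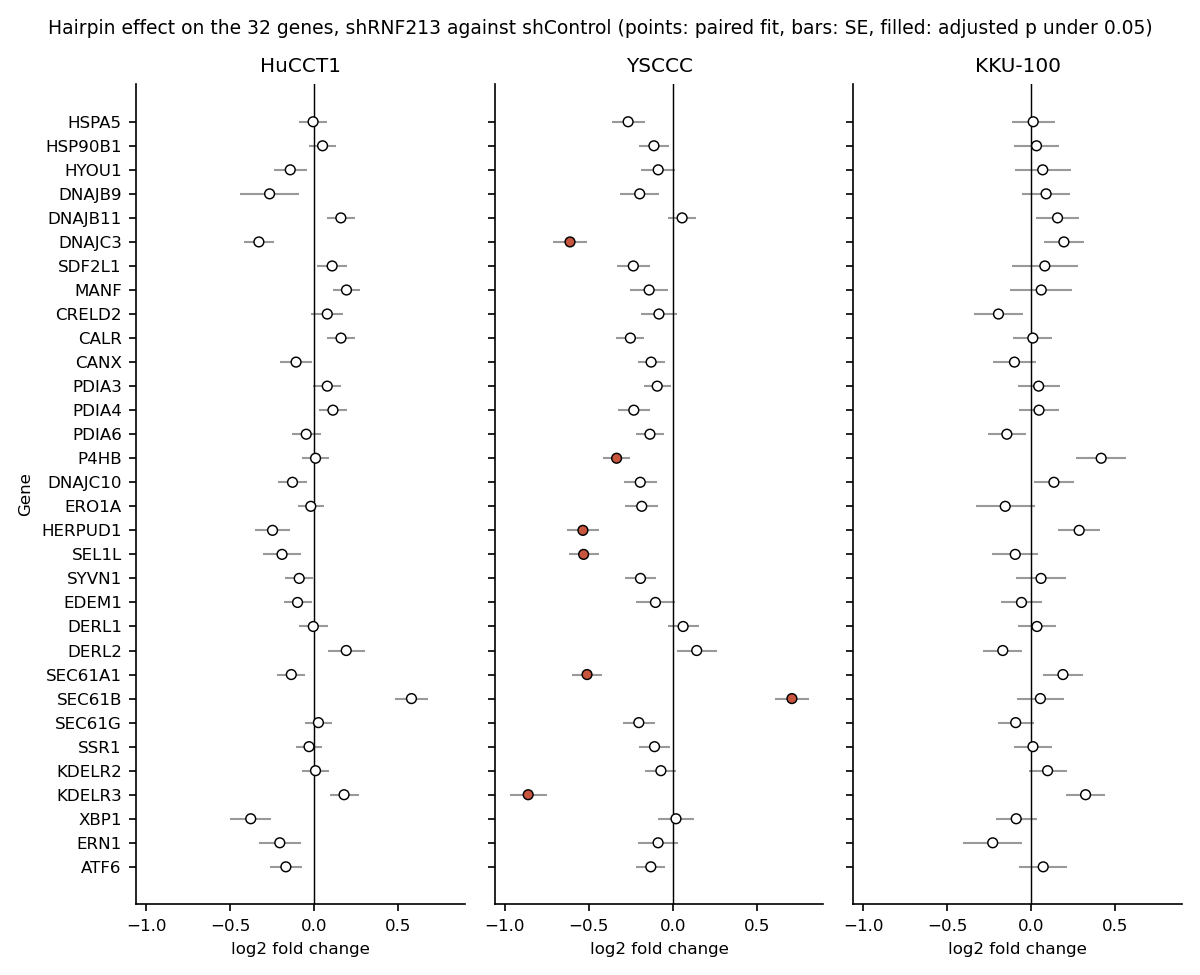
Log2 fold change of shRNF213 against shControl (horizontal) for the 32 genes (vertical) in 3 lines; points are estimates of the paired fit, bars their SE, and filled points passed an adjusted p of 0.05. Filled points occur in YSCCC, where 27 of 32 values are negative, and in KKU-100 22 of 32 are positive.

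Related ER and stress genes outside the set number 127 in 9 lists, 13 of them cytosolic heat shock genes. With the hairpin, 15 of 126 were called in YSCCC (4 higher, 11 lower), beside 8.25% of all genes, 1 of 127 in HuCCT1 (0.14%), and by edgeR 0 of 123 in KKU-100 (19 at an unadjusted p under 0.05; 0.443%). SRPRA, the receptor subunit that brings ribosomes to the ER, was the 1 of 15 translocon and signal peptidase genes called; it had 141, 133 and 140.2 CPM in shControl replicates 1, 2 and 3 and 245, 255 and 231 CPM in shRNF213 replicates 1, 2 and 3 in HuCCT1 (0.81, SE 0.08, adjusted p = 0.0215) and rose in YSCCC (0.63, SE 0.12, adjusted p = 0.00771). Of 15 other disulfide isomerases and redox enzymes TMX3 rose in YSCCC (0.77) and 4 fell, PDIA5 (-0.41) and the selenoprotein SELENOM (-0.37) most. Of 15 glycosylation and calnexin cycle genes the calcium-binding RCN1 rose (0.65) and 3 fell, its relative CALU (-0.42) most. FKBP10, a collagen prolyl isomerase (-0.59, 1 of 15 other cochaperones), EDEM2 (-0.52, 1 of 21 other degradation genes), and CREB3 and BHLHA15 (-0.55 and -1.81, 2 of 11 other sensors and factors, BHLHA15 at a mean under 5 CPM and named after its value was seen) fell, and the p24 cargo receptor TMED2 rose (0.45, 1 of 8 retrieval genes). Over the mean of the lines 8 of 127 were called, beside 2.9% of all genes: NUPR1 (-0.60), DDIT3 (-0.40) and SESN2 (-0.37) of the PERK and ATF4 arm fell (3 of 14), as did FAF2 (-0.22), while SRPRA, TMX3, RCN1 and TMED2 rose. No cytosolic heat shock gene of 13 was called by edgeR with the hairpin in a single line or over the mean of the lines. Medians over the 9 lists lay between -0.24 and 0.19 in single lines. The difference of KKU-100 from YSCCC called 7 of 127, all higher in KKU-100, beside 2.63% of all genes called and 1.64% called higher, and the other differences 0 of 127 by edgeR (20 for YSCCC and 16 for KKU-100 against HuCCT1 at an unadjusted p under 0.05). Between replicate numbers 70 of 126 were called in YSCCC, 27 of 127 in HuCCT1 and 6 of 123 in KKU-100, beside 45.4%, 19.2% and 4.9% of all genes. Of the 70, 12 were cytosolic heat shock genes, 11 of them lower in replicate 3. In YSCCC these were, beside the lists above, 10 of 15 redox enzymes, 6 of 11 sensors and factors, 7 of 15 cochaperones, 7 of 15 glycosylation genes, 6 of 15 translocon genes, 8 of 21 degradation genes and 3 of 8 retrieval genes. The oxidase ERO1B (1.86), FICD, which modifies HSPA5 (1.61), the prolyl isomerase FKBP10 (1.39), SRPRA (1.05) and the translocon partners SEC63 (0.87) and TRAM1 (0.77) were higher in replicate 3. The membrane oxidoreductase TMX1 (-0.86), the peroxiredoxin PRDX4 (-0.73) and WFS1 (-0.98) were lower. In shControl 77 of 127 differed between KKU-100 and HuCCT1, 71 between KKU-100 and YSCCC and 72 between YSCCC and HuCCT1, beside 57.4%, 60.7% and 58.4% of all genes.

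In shControl, 29 of the 32 ER genes had higher values in KKU-100 and 25 in YSCCC than in HuCCT1, among them HSPA5, HERPUD1 and SSR1. Over all genes, 50.3% had lower values in KKU-100 and 49.4% in YSCCC than in HuCCT1. HSPA5 was not called between YSCCC and HuCCT1. Its CPM in YSCCC shControl replicates 1 and 2 lay within the HuCCT1 range, and replicate 3 was above it. KKU-100 against HuCCT1 called 19 of 32 genes (59.4%; 57.4% of all genes), 18 of them higher in KKU-100 (27.3% of all genes) and 1 lower (30.1%), with a median over the 32 of 0.73 against -0.01 for all genes. YSCCC against HuCCT1 called 13 (40.6%; 58.4%), 12 of them higher in YSCCC (30.2%) and 1 lower (28.1%). KKU-100 against YSCCC called 12 (37.5%; 60.7%), 9 of them higher in KKU-100 (27.9%) and 3 lower (32.9%). In the same order of contrasts, called differences over 2-fold numbered 9, 7 and 8 of 32, beside 42.9%, 42.7% and 45.3%. Without the YSCCC shControl library of replicate 3, KKU-100 against YSCCC called 21 genes, 18 of them higher in KKU-100, and YSCCC against HuCCT1 called 11, 8 of them higher in YSCCC. Without HuCCT1 replicate 1 YSCCC against HuCCT1 called 8, and without KKU-100 replicate 1 KKU-100 against HuCCT1 called 12. With 1 shControl library left out, calls over all genes moved too. They ranged from 9559 to 11604 for KKU-100 against YSCCC and from 9395 to 10750 for YSCCC against HuCCT1. For KKU-100 against HuCCT1 the range was 9082 to 9942.

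HSPA5 had 655, 915 and 766 CPM in the HuCCT1 shControl replicates 1, 2 and 3 and 3441, 2416 and 2592 CPM in those of KKU-100, without overlap (1.87, SE 0.47, adjusted p = 0.00617). DNAJB9 was at 20.6 ± 6.67 CPM (SD, n = 3) in HuCCT1 and 95.4 ± 43.0 CPM in KKU-100 (2.22, SE 0.50, adjusted p = 0.00326), and EDEM1 at 60.5 ± 11.6 and 193 ± 26.0 CPM (1.68, SE 0.29, adjusted p = 0.000582). HERPUD1 was at 75.5 ± 12.1 and 249.9 ± 63.4 CPM (1.74, SE 0.53, adjusted p = 0.0163). XBP1 was higher in KKU-100 than in HuCCT1 (1.47, SE 0.36, adjusted p = 0.00495) and than in YSCCC (1.31, SE 0.35, adjusted p = 0.00851). ERN1 was higher in KKU-100 than in YSCCC by 2.45 (SE 0.72, adjusted p = 0.0138), a call lost without KKU-100 replicate 1 (adjusted p = 0.0539). HERPUD1 lost its call without HuCCT1 replicate 3 (adjusted p = 0.0591) or KKU-100 replicate 1 (adjusted p = 0.0538). The oxidase ERO1A went the other way, at 338 ± 27.0 CPM in HuCCT1 and 226 ± 60.8 CPM in KKU-100 (-0.57, SE 0.20, adjusted p = 0.0333).

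Of the set, 3 genes differed in all 3 contrasts. SSR1 was at 141 ± 19.9, 292 ± 21.8 and 457 ± 57.5 CPM (SD, n = 3 each) in HuCCT1, YSCCC and KKU-100. SEC61G was highest in YSCCC, at 251, 256 and 305 CPM against 52.7, 64.6 and 54.1 CPM in HuCCT1 and 80.5, 74.2 and 72.9 CPM in KKU-100. Its difference between YSCCC and HuCCT1 was 2.24 (SE 0.15, adjusted p = 2.12e-06), while the other small subunit SEC61B was highest in KKU-100 (110.0 ± 19.0 CPM, against 52.3 ± 1.21 and 47.9 ± 8.11 CPM in HuCCT1 and YSCCC). DERL2 was lowest in YSCCC, at 25.5 ± 5.61 CPM against 51.4 ± 6.06 in HuCCT1 and 80.5 ± 12.2 in KKU-100. The cochaperone DNAJB11 and its partner SDF2L1 were lower in KKU-100 than in YSCCC, with log2 differences of -1.32 (SE 0.21, adjusted p = 0.000341) and -0.97 (SE 0.28, adjusted p = 0.011). CALR, DERL1, KDELR2, KDELR3, P4HB and SYVN1 were called in no contrast.

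Per length, P4HB had the highest mean level of the set in shControl of each line, at 1319 ± 64.1 TPM (the length-scaled level, SD, n = 3) in HuCCT1, 1829 ± 109 TPM in YSCCC and 1748 ± 194 TPM in KKU-100. In HuCCT1 CALR (775 ± 159 TPM), HSP90B1 (642 ± 117 TPM) and CANX (559.6 ± 74.7 TPM) followed, and these 3 did not separate beyond their spread. In KKU-100 HSPA5 came next (1552 ± 289 TPM), its range overlapping that of P4HB. In YSCCC CANX (1173 ± 55.7 TPM), SEC61G (1165 ± 195 TPM) and CALR (1151 ± 56.4 TPM) lay within each other's spread, and HSPA5 was at 1043 ± 917 TPM, where replicate 3 had 2102 TPM and the others 509 and 518 TPM. DNAJB9 was last in HuCCT1, ERN1 in YSCCC (18.6 ± 20.1 TPM) and DNAJC3 in KKU-100 (43.0 ± 8.64 TPM).

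**Figure D5:**
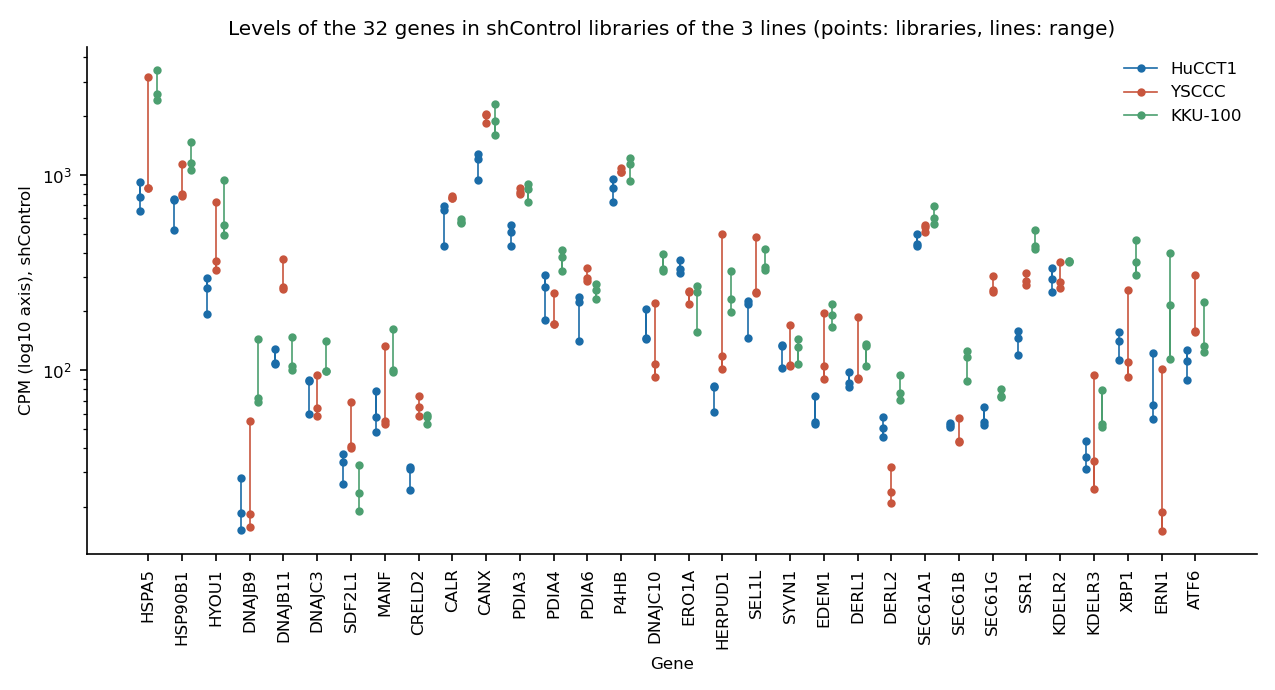
CPM (log10 axis) of the 32 genes in the 3 shControl libraries of each line; points are libraries and vertical lines their range. SSR1 rises from HuCCT1 over YSCCC to KKU-100, SEC61G and DNAJB11 are highest in YSCCC, and the YSCCC ranges of HSPA5, HERPUD1 and ERN1 extend upward to replicate 3.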

How the data were processed

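Gene counts of 18 libraries were taken from the Raw column that the authors deposited, and levels between genes from the deposited TPM values. The deposited FPKM values, mean coverage signal and DESeq2-normalised signal (counts divided by a size factor, per the file headers) were not used in tests. Per the submitters' processing notes, reads were processed on GRCh38 with tools that included HTSeq 0.6.1p1, StringTie 2.1.6, STAR 2.5.1b, DESeq2 1.34.0, FastQC 0.11.9 and Picard 1.139; none of the sources used here gives the strand setting, so overlapping and antisense genes cannot be told apart. Each SE is the absolute log2 change divided by the square root of the F statistic of the edgeR test. It reflects the spread between libraries in its fit, in part estimated across genes, at a depth of 21056732 to 25502097 counts per library.

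Counts were fitted with edgeR 4.0.16 in R 4.3.3 (filterByExpr with minimum count 10 and minimum total 15, TMM factors, quasi-likelihood F test), with p-values adjusted over all genes tested by Benjamini-Hochberg at 0.05. Within a line the hairpin was fitted with the replicate number as a block, replicate numbers were tested with the hairpin as a covariate, the mean over lines and the differences between lines came from 1 fit of all libraries, and shControl levels from a fit of the 9 shControl libraries. Same-numbered libraries deviated together in 9 of 9 pairs (Pearson correlation across genes 0.406 to 0.902, above the minimum of 0.1). Some differently numbered libraries passed that minimum too. In YSCCC these were shControl replicate 2 with shRNF213 replicate 1 (0.657) and shControl replicate 1 with shRNF213 replicate 2 (0.516). In KKU-100 it was shControl replicate 3 with shRNF213 replicate 2 (0.122). The highest value of each shControl library was with the same number, which was used as the pair. CPM used TMM library sizes, and the log2 CPM of the pairing check a prior count of 2. Alternatives were DESeq2 1.42.0, limma-voom (limma 3.58.1), other size factors, no filter, no replicate block and leaving out replicates; the ratio of deposited TPM values was added after seeing the data. Each kind of fit was tested on simulated counts with the same spread set for every gene and a single size of change. The simulation cannot show how the fits perform at the differing spread and smaller changes of these genes. Values per library are given for genes called with the hairpin and otherwise for up to 6 genes per comparison with the largest change among called genes at a mean of at least 5 CPM; list genes are named by the same rule, up to 3 per list and comparison. A few others, named for their role or for not being called, were chosen after their values were seen. The members and lists were chosen with earlier results of these data known.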

Additional observations from a re-analysis of the deposited data

Results flagged for a closer look

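The effect of the hairpin differed between lines for a number of genes, by the test of the difference itself (edgeR, adjusted over all genes tested). KDELR3 had an effect in YSCCC that was lower than in HuCCT1 by a log2 difference of -1.04, lower in 3 of 3 YSCCC pairs and higher in 3 of 3 HuCCT1 pairs. For KKU-100 minus YSCCC the differences of ER genes were 1.19 for KDELR3, 0.82 for HERPUD1, 0.81 for DNAJC3, 0.75 for P4HB and 0.70 for SEC61A1. By CPM each was lower in 3 of 3 YSCCC pairs and higher in 3 of 3 KKU-100 pairs. By the deposited TPM, DNAJC3 in KKU-100 replicate 1 was slightly lower with the hairpin (52.9 TPM in shControl and 51.6 TPM in shRNF213).

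Of the other genes listed, the same contrast gave 0.94 for STC2, 0.84 for CREB3, 0.74 for GOLGB1, a Golgi tether, 0.72 for FKBP10, 0.64 for BAG3, a cytosolic Hsp70 cochaperone, 0.58 for STT3A and 0.55 for MOGS, the glucosidase that starts glycan trimming. The collagen COL3A1, a fibroblast marker, differed by 2.79 (SE 0.46, adjusted p = 0.00807).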

How the results depend on the processing

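Without the replicate block, edgeR called 0 of the 32 genes in YSCCC, 0 over the mean of the lines, 0 for YSCCC minus HuCCT1 and 0 for KKU-100 minus YSCCC; with a replicate block across lines, shControl differences numbered 9 (YSCCC minus HuCCT1), 16 (KKU-100 minus HuCCT1) and 12 (KKU-100 minus YSCCC). The hairpin count in HuCCT1 was 1 without the filter and 1 by DESeq2, and the replicate count in KKU-100 was 2 without the filter and 4 by DESeq2. Leaving out 1 replicate number, the hairpin count ranged from 0 to 2 in HuCCT1, 6 to 7 in YSCCC and 1 to 3 over the mean, and was 0 in KKU-100. The same ranges were 0 to 1 for YSCCC minus HuCCT1, 0 to 1 for KKU-100 minus HuCCT1 (P4HB without KKU-100 replicate 2) and 2 to 5 for KKU-100 minus YSCCC. For replicate numbers they were 3 to 18 in HuCCT1, 1 to 23 in YSCCC and 1 to 2 in KKU-100, and for shControl 8 to 15, 12 to 19 and 9 to 21 in the order above. The cause of these shifts was not tested, beyond fewer libraries in the fit. Among single genes, 0 of 472 alternatives reversed a direction and 58 lost a call: 15 of 15 without the block, 41 of 240 with a replicate left out and 2 elsewhere. For replicate numbers only the call was compared, so a reversed direction could not be recorded there. Ratios of the deposited TPM values, an alternative chosen after seeing the data, moved 0 of 15 values. A value counted as moved if it differed from the reported one by at least the SD of the pair ratios. For a difference between lines the SDs of both lines were combined. The TPM values come from the same libraries, so this wide rule is no independent check.

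Counts over all genes moved as well. Without the block they were 0 in HuCCT1, 0 in YSCCC, 2 in KKU-100 and 28 over the mean, and 0 in each difference. Without the filter and by DESeq2 they were 117 and 114 in HuCCT1 (22 as reported), 193 and 420 in KKU-100 (66), 907 and 1054 over the mean (555), 125 and 154 for YSCCC minus HuCCT1 (9), 273 and 283 for KKU-100 minus HuCCT1 (45), 894 and 1043 for KKU-100 minus YSCCC (503), and 1348 and 1896 for KKU-100 replicates (731). In YSCCC the count was 2160 without the filter (1397), and limma-voom gave 4 and 20 for the differences from HuCCT1. With a replicate left out they ranged from 18 to 335, 313 to 1856 and 9 to 420 in HuCCT1, YSCCC and KKU-100. In the same order of lines, counts between replicate numbers ranged from 1896 to 4797, 630 to 8225 and 246 to 1134.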
